A study of Drosophila melanogaster with 12 samples.

Results

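RNA bound by FLAG-tagged Caper in adult Drosophila melanogaster heads was compared with the RNA of the lysates it was pulled from. Caper is the fly homologue of human RBM39, an RNA-binding protein related to the splicing factor U2AF. Proteins of this family help the spliceosome find splice sites, and RNA immunoprecipitation (RIP) with sequencing measures which RNAs come down with such a protein. The libraries were those labelled as IPs with the mouse antibody to FLAG (IPs 4, 5 and 6) and the 3 inputs that the titles join to them by number, which makes 6 of the 12 libraries of the series. The other 6 are IPs with a rabbit antibody to Caper itself (IPs 1, 2 and 3) and their inputs, and they were used only to test where the FLAG IP differed.

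All 12 libraries had the same genotype, Hsp70Gal4 x UASCaperFlag, the same tissue and the same heat shock of 2 h at 37 °C with a night at 30 °C. The Hsp70 promoter drives Gal4 in many cell types after heat, and every input comes from heat-shocked flies as well. The age and sex of the flies were not given in the sources used here, nor how many flies went into a lysate. The labels do not say whether IPs 4, 5 and 6 came from separate flies or lysates, so p-values measure the spread between these samples. A mock IP was not analysed here, and the background throughout is the paired input. RNA that stuck to the FLAG beads without Caper was therefore not measured in these libraries.

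Of 17612 genes in the table, 2043 had 0 counts in all 6 libraries and 10476 passed the filter on low counts and were tested. The inputs held 9615414 to 12579559 counted read pairs and the IPs 20431211 to 23694613. Of the alignments, 23.6 to 25.2% were counted on genes in the inputs and 53.7 to 60.1% in the IPs, and those discarded as multimapping were 72.5 to 74.3% and 34.3 to 40.9%. Among uniquely placed pairs, 3.83 to 4.10% of input pairs and 5.29 to 6.40% of IP pairs fell outside annotated exons. These shares moved with the IP in all 3 pairs, and their part in the results below was not tested. Markers of head cell types were present in every library. The summed level of 7 photoreceptor markers was 32930 to 34840 CPM (counts scaled to a common library size) in the inputs and 23100 to 27270 in the IPs, that of 8 neuron markers 5461 to 5910 and 6476 to 6613, and that of 9 glia markers 1639 to 1712 and 1546 to 1688. The higher neuron sum is not shared by the set, since 2 of the 8 markers rose and 4 fell (median log2 fold change -0.18). Fat body (6 markers, 6666 to 11910 and 4103 to 10180 CPM) and muscle (5 markers, 9343 to 11210 and 7585 to 7788 CPM) were also in the samples, while the 4 germline markers in the table summed to at most 14.8 CPM.

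The study followed 12 RNAs by RT-PCR in 3 separate FLAG IPs and in mock FLAG IPs from yw flies, with band intensities normalized to the inputs. It reported all 12 as enriched over the mock IPs, which is not the IP over input ratio used here. The list was picked with knowledge of these libraries and is therefore not independent evidence of its direction. Of the 12, 11 were higher in the FLAG IP by edgeR's test, and chic was not called. Primers for 3 of them are shown because they span the list, from the most enriched member (Acn), through an intermediate one (zfh1), to the one that was not called (chic). Each is written 5′ to 3′ and in lower case, with no part singled out.
Acn forward primer (gene on 2L): agccggacgacgcctagaaagc
Acn reverse primer: gcttaggggcactggctgcac
zfh1 forward primer (gene on 3R): ggcaaggcggagacccatgg
zfh1 reverse primer: acgatgcgcctgctgactgg
chic forward primer (gene on 2L): gtgtgacccccgaaacgaaagtgc
chic reverse primer: ctaccacggaagcggcctgc

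Acn encodes Acinus, a subunit of the ASAP complex that joins the exon junction complex on spliced mRNA. Its level (chromosome 2L, 19045355 to 19048817, dmel_r6.36) was 132, 133 and 129 CPM in inputs 4, 5 and 6 and 328, 521 and 408 CPM in the IPs. All 3 IPs lay above all 3 inputs, with a log2 fold change of 1.65 (SE 0.10, n = 3 pairs, edgeR adjusted p = 1.07e-08). For zfh1 (3R, 30765926 to 30789202), a zinc finger homeodomain repressor, the inputs held 77.5, 110 and 85.8 CPM and the IPs 138, 199 and 137 CPM (log2 fold change 0.79, SE 0.07, edgeR adjusted p = 4.50e-07). The 2 groups again did not overlap. For chic (2L, 5972115 to 5981018), the fly profilin, the inputs held 493, 480 and 485 CPM and the IPs 584, 494 and 482 CPM, so the groups overlapped (log2 fold change 0.09, SE 0.08, edgeR adjusted p = 0.322). Of the other 9, qkr58E-1 (1.49), Unc-115b (1.33, SE 0.50) and brp (1.0) had the highest log2 fold changes, and Unc-115a, lola, tutl, dlg1, chinmo and pros lay between 0.21 and 0.53.

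The RNA of Caper itself was enriched in the FLAG IP. Its level (FBgn0031883, 2L, 7032721 to 7037878) was 1435, 1098 and 725 CPM in the inputs and 2606, 2136 and 1458 CPM in the IPs. The IP was above its own input by a similar factor in each pair, although the input level itself varied. The log2 fold change was 0.94 (SE 0.08, edgeR adjusted p = 3.14e-07), a 1.92-fold rise. RNA of the transgene and of the endogenous gene cannot be told apart in these counts.

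Across the transcriptome, 3104 genes (29.6% of those tested) rose and 3094 (29.5%) fell in the FLAG IP, which makes 59.2% in either direction, and 4278 were not called. The log2 fold change of all genes had a median of -0.00, with 5% of genes below -1.16 and 5% above 1.19. TMM scaling sets this centre, so the balance of higher and lower genes depends on it. With scaling by library size alone, 3711 genes were higher and 2551 lower. Most calls were small: 75.4% of the higher genes and 77.5% of the lower genes changed less than 2-fold. At least 2-fold, 764 genes (7.29%) rose and 696 (6.64%) fell. At least 4-fold the sides were unequal, with 42 genes (0.401%) higher and 158 (1.51%) lower. The 3 IPs all lay above the 3 inputs for 2722 genes (26%) and all below for 2863 genes (27.3%). Whether called or not, 37.9% of genes were higher and 37.5% lower in every pair. Of the called genes, 6130 moved the same way in all 3 pairs, and the fold changes of any 2 pairs had a Spearman correlation across genes of 0.807 to 0.831, as a description of genes that are not independent replicates.

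**Figure D1:**
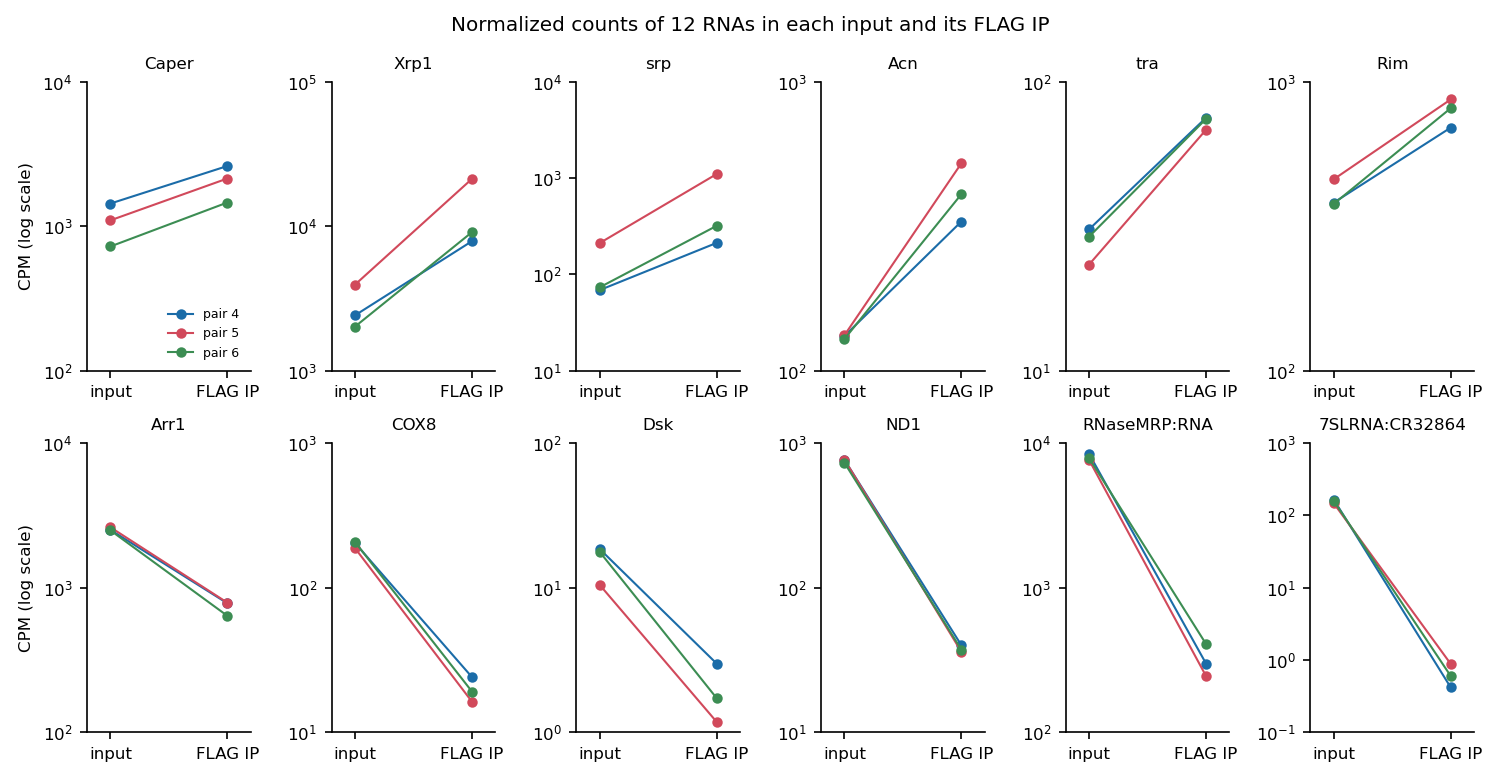
Level of 12 RNAs in the 6 FLAG libraries, in CPM on a log axis, with each input joined to its own IP by a line (pairs 4, 5 and 6). Every line runs the same way within an RNA, upward for Caper, Xrp1, srp, Acn, tra and Rim, and downward for Arr1, COX8, Dsk, ND1, RNaseMRP:RNA and 7SLRNA:CR32864.

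Among mRNAs with a mean of at least 100 counts over the FLAG libraries, the 10 most enriched rose by 2.01 to 2.31 on the log2 scale and included several regulators of transcription and stress. Xrp1, a bZIP transcription factor induced by stress and active in cell competition, was among them. Its level (3R, 18914968 to 18926989) was 2425, 3953 and 2027 CPM in the inputs and 7885, 21259 and 9100 CPM in the IPs. The IPs were all above the inputs, and pair 5 was highest in both (log2 fold change 2.10, SE 0.13, edgeR adjusted p = 1.38e-08). Xrp1 took 0.27% of counts in the inputs and 1.30% in the IPs on average. srp, a GATA factor of fat body and blood cells, had 68.9, 212 and 73.7 CPM in the inputs and 212, 1099 and 319 CPM in the IPs (log2 fold change 2.05, SE 0.11, edgeR adjusted p = 3.67e-09). Here IP 4 was about level with input 5, so the change is plain only within pairs. For brk, a repressor of Dpp target genes, the inputs held 36.8, 62.3 and 28.9 CPM and the IPs 108, 352 and 108 CPM (log2 fold change 2.01, SE 0.13, edgeR adjusted p = 1.82e-08).

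The other 7 had more varied roles. cactin, a conserved nuclear protein first found through its link to the NF-κB inhibitor Cactus, rose from 90.9, 129 and 89.0 to 277, 679 and 392 CPM (log2 fold change 2.05). Gr63a, a subunit of the carbon dioxide receptor, rose from 2.65, 0.758 and 2.10 to 10.5, 5.02 and 11.6 CPM (2.31, SE 0.20, edgeR adjusted p = 2.40e-07), from only 9 to 27 counts per input. Its groups did not overlap. Muc96D, a mucin, rose by 2.24. CG14961 (2.19), CG17440 (2.20), CG2964 (2.14) and CG34220 (2.05) have no role given here. The IP of pair 5 was the highest of the 3 for 6 of the 10 genes (Muc96D, CG14961, Xrp1, cactin, srp and brk), and so was its input in each of the 6. Level and enrichment were thus read within pairs.

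Of 302 lncRNAs tested, 97 rose and 31 fell (median log2 fold change 0.34), and of 181 antisense RNAs 57 rose and 8 fell (median 0.36). The shares higher, 32.1% and 31.5%, were near the 29.6% of all genes, while the shares lower, 10.3% and 4.42%, were below the 29.5% of all genes. Where at least 10 counts were required in every library, 56 lncRNAs and 38 antisense RNAs were higher and 24 and 9 lower, and with the exon length correction 144 lncRNAs were higher and 20 lower. The counting was stranded, so an antisense RNA and its partner were counted apart. lncRNA:CR42862 (3L, 224106 to 230964) was at 1249, 1596 and 1517 CPM in the inputs and 4308, 7444 and 6626 CPM in the IPs (2.05, SE 0.11, edgeR adjusted p = 2.33e-09). The groups lay well apart. asRNA:CR46089 rose by 1.90 and lncRNA:CR44842 by 2.01, the latter with overlapping groups, since pair 5 held only 0.505 CPM in the input and 2.66 CPM in the IP against 4.42 and 16.2 CPM in pair 4. lncRNA:CR45380 rose by 2.12 and ends 465 bases from CG14961 on the same strand of 3L, and the pseudogene CR17438 (2.36) lies 7915 bases from CG17440 on the same strand of X. Reads that run past an annotated end could be counted on a neighbour as close as CG14961 is to lncRNA:CR45380, which was not tested. lncRNA:roX2, an RNA of the dosage compensation complex, went the other way, from 90.0, 74.4 and 90.1 CPM to 32.3, 31.2 and 33.8 CPM (log2 fold change -1.38, SE 0.08, edgeR adjusted p = 4.08e-09).

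The strongest depletion was that of short structured RNAs. Both copies of 7SL RNA, the RNA of the signal recognition particle that directs ribosomes to the endoplasmic reticulum, were nearly absent from the IPs. 7SLRNA:CR32864 (3R, 6822500 to 6822798) had 165, 147 and 158 CPM in the inputs and 0.420, 0.887 and 0.604 CPM in the IPs, which were 9, 21 and 14 counts. Its log2 fold change was -7.91 (SE 0.14, edgeR adjusted p = 6.86e-14), or 239.9-fold lower. 7SLRNA:CR42652 was 137-fold lower (log2 fold change -7.10). The copies are near-identical, so the split of reads between them is uncertain, while both moved the same way.

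The RNAs of RNase P, which matures tRNA, and RNase MRP, which cleaves precursor rRNA, were also depleted. RNaseMRP:RNA (3R, 23730048 to 23730429) was at 8400, 7627 and 7856 CPM in the inputs and 299, 245 and 409 CPM in the IPs (log2 fold change -4.68, SE 0.14, edgeR adjusted p = 9.65e-12). RNaseP:RNA was at 1372, 1195 and 1341 CPM in the inputs and 42.3, 47.3 and 39.8 CPM in the IPs (-4.92, SE 0.11, edgeR adjusted p = 2.98e-13). No IP came near an input in either RNA. RNaseMRP:RNA alone took 0.770% of input counts and 0.033% of IP counts.

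Of 18 small nuclear RNAs tested, a class that holds the RNAs of the spliceosome and 7SK, 17 fell and none rose, with a median log2 fold change of -2.11. snRNA:7SKa, which holds back the elongation factor P-TEFb, went from 4604, 3677 and 3721 CPM to 615, 404 and 489 CPM (-3.01, SE 0.10, edgeR adjusted p = 2.09e-11), and snRNA:U4atac of the minor spliceosome went from 58.7, 58.0 and 51.9 to 3.92, 5.45 and 4.61 CPM (-3.59). The groups were far apart in both. Of 99 small nucleolar and Cajal body RNAs, which guide the modification of rRNA and snRNA, 83 fell and 2 rose (median -1.54). snoRNA:CG32479-b fell by 5.02 on the log2 scale, and the pair that rose were snoRNA:Psi28S-2442b (1.36, with at most 4.73 CPM) and snoRNA:Me28S-A1322 (0.89), named after their values were seen. All 12 tested copies of rRNA or rRNA pseudogenes fell (median -2.73), but rRNA was removed by probes before sequencing and its copies are near-identical. After a correction of every library for exon length, only 11 snRNAs and 33 snoRNAs were lower and 21 snoRNAs were higher, so how many fell depends on that choice.

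All 14 tested genes of the mitochondrial genome, whose RNAs are made and kept inside mitochondria, fell in the FLAG IP, and their share of counts went from 7.76% ± 0.620 (SD, n = 3) in the inputs to 2.18% ± 0.720 in the IPs. ND1, a subunit of respiratory complex I, was at 764, 768 and 730.0 CPM in the inputs and 40.1, 36.1 and 37.4 CPM in the IPs (log2 fold change -4.32, SE 0.08, edgeR adjusted p = 1.17e-13). lrRNA, the large mitochondrial rRNA, was at 78518, 69455 and 66800 CPM in the inputs and 21926, 11273 and 22409 CPM in the IPs (-2.01, SE 0.19, edgeR adjusted p = 4.87e-07). Neither overlapped, and IP 5 held the least lrRNA. On average lrRNA alone took 6.92% of counts in the inputs and 1.93% in the IPs, which is most of the mitochondrial share. The part of rRNA removal by probes in the lrRNA values, here and in the comparison of antibodies below, was not tested.

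**Figure D2:**
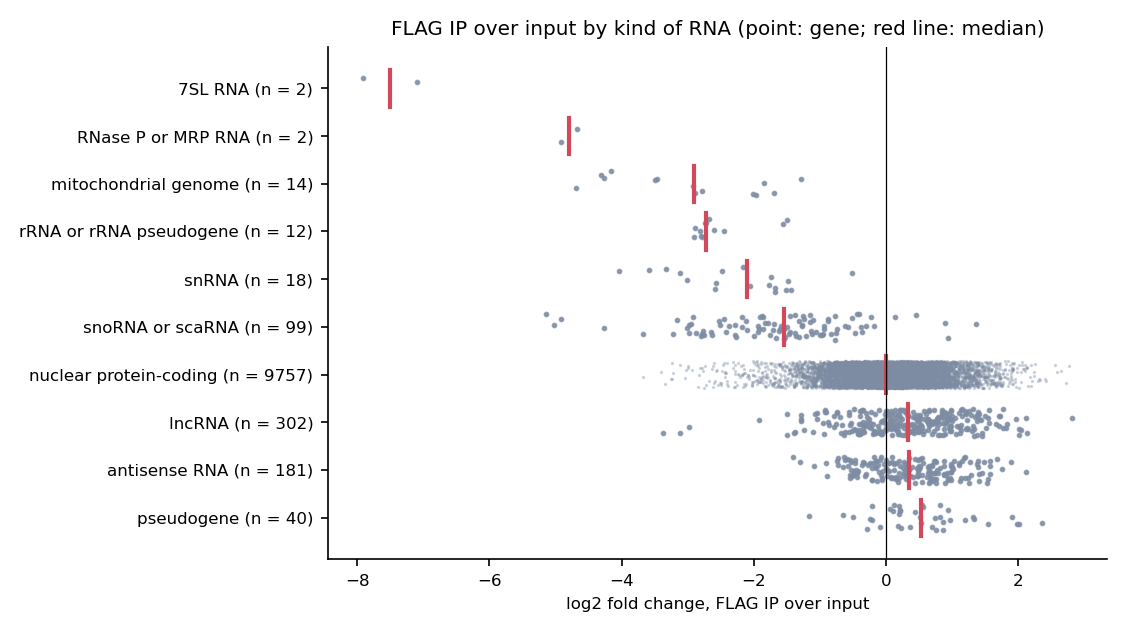
Log2 fold change of FLAG IP over input for each gene tested (points), by kind of RNA, with the median as a red line. 7SL, RNase P and MRP, mitochondrial, rRNA, snRNA and snoRNA genes lie mostly below 0, and lncRNA and antisense RNA lie mostly above it. The mRNAs spread to both sides, with a median of -0.01 that TMM scaling places near 0.

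Messenger RNAs from the nuclear genome divided evenly, with 2916 higher and 2909 lower of 9757, and took 88.2% of counts in the inputs and 95.2% in the IPs. Among mRNAs with a mean of at least 100 counts, the 10 most depleted were COX7AL2, COX8, BomS5, RpL38, Drsl4, CG12158, TotM, TotC, Dsk and Diedel, at -3.68 to -3.0. They include subunits of cytochrome c oxidase, a ribosomal protein, immune and stress peptides and a neuropeptide. The counts given for each gene list below stand beside 29.6% higher and 29.5% lower of all genes tested.

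Nuclear genes of the respiratory chain, whose products complete the complexes begun by the mitochondrial genome, fell together. Of 75 tested, 68 fell and 3 rose, with a median log2 fold change of -0.94 beside -0.00 for all genes. COX8 (3L, 21538859 to 21539447), a cytochrome c oxidase subunit, was at 203, 187 and 206 CPM in the inputs and 24.1, 16.3 and 19.1 CPM in the IPs, a 10.1-fold fall with no overlap (-3.34, SE 0.09, edgeR adjusted p = 6.07e-12). Of 72 mitochondrial ribosomal proteins 54 fell and 2 rose (median -0.54). With the exon length correction 65 respiratory chain genes were still lower, but only 30 mitochondrial ribosomal proteins.

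Cytosolic ribosomal proteins also tended lower, with 53 of 86 lower and 8 higher (median -0.43). RpL38 went from 228, 154 and 201 CPM to 26.2, 18.7 and 17.1 CPM (-3.24, SE 0.10, edgeR adjusted p = 9.65e-12), and RpL41, the smallest ribosomal protein, from 2130, 1607 and 1900 to 380, 224 and 235 CPM (-2.78, SE 0.10, edgeR adjusted p = 8.54e-11). RpLP0, of the ribosomal stalk, was among the 8 that rose, from 1381, 1278 and 1166 to 1974, 1871 and 1532 CPM (0.49). Under the length correction the counts were 42 lower and 20 higher. Of 33 proteasome genes 23 fell and 4 rose (median -0.50), with Prosbeta5 at -1.38 and Rpt6 at -1.23. In glycolysis 10 of 12 genes fell and none rose (median -0.52), among them Gapdh2 (-1.72) and Ald1 (-0.91).

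Secreted peptides gave the lowest medians among mRNA groups. Of 22 antimicrobial and related immune peptides tested, 21 fell and none rose (median -1.80). BomS5, a short Bomanin made downstream of Toll, was at 67.7, 54.5 and 83.6 CPM in the inputs and 8.5, 7.22 and 5.78 CPM in the IPs (-3.24, SE 0.14, edgeR adjusted p = 4.43e-10). The stress peptides TotM (-3.11) and TotC (-3.03) and the immune modulator Diedel (-3.0) fell as far. Bomanin, drosomycin-like and Turandot genes have close paralogues, and reads shared by copies were dropped.

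Neuropeptides followed the same direction, with 24 of 26 lower and a median of -1.54. Dsk, which encodes the satiety peptide drosulfakinin, was at 18.5, 10.4 and 17.7 CPM in the inputs and 2.99, 1.18 and 1.72 CPM in the IPs (-3.0, SE 0.17, edgeR adjusted p = 4.80e-09). Ilp2, an insulin-like peptide, went from 36.8, 31.1 and 36.4 to 6.87, 2.87 and 4.27 CPM (-2.94, SE 0.15, edgeR adjusted p = 2.12e-09), and Pdf, the peptide of clock neurons, from 36.5, 28.5 and 34.7 to 10.1, 2.96 and 6.08 CPM (-2.46). In all of them the highest IP was below the lowest input. amn was the exception, called higher on 1 to 3 counts per input and 18 to 24 per IP, and was named after its values were seen. Of 29 odorant-binding proteins, which are secreted into the fluid of sensory hairs, 25 fell and 1 rose (median -1.11), with Obp99b at -2.11.

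Phototransduction genes, which carry the light response of the eye, gave 17 of 19 lower and none higher (median -0.75). Arr1, the arrestin that switches rhodopsin off, was at 2509, 2613 and 2489 CPM in the inputs and 781, 788 and 639 CPM in the IPs (-1.79, SE 0.09, edgeR adjusted p = 1.56e-09). Rh5, a blue-sensitive opsin, went from 143, 146 and 168 to 49.6, 48.7 and 53.6 CPM (-1.58). Both lay clear of the inputs. ninaE, the main rhodopsin, moved less, from 23048, 22293 and 21934 to 18403, 15712 and 14019 CPM (-0.49, SE 0.12, edgeR adjusted p = 0.00304), and without pair 6 it was not called (-0.41, edgeR adjusted p = 0.104). Each IP was drawn from the lysate named as its input, so a lower value here is a share of RNA pulled down. It is not a measure of the number of cells or of RNA per cell.

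Other tissue groups were mostly lower too. Of 9 fat body and yolk genes 7 fell and none rose (median -0.73), with the lipoprotein apolpp at -1.14 and the yolk protein Yp3 at -1.08. Of 16 muscle genes 13 fell and 2 rose (median -0.48), with bt, the fly projectin (-1.19), among the lower and the actin Act87E (0.39) among the higher. Glial genes were mixed, with repo (0.59), a homeodomain transcription factor of glia, loco (0.76) and moody (0.42) higher and wrapper (-1.16), Mdr65 (-0.81), Eaat1 (-0.74), alrm (-0.71) and nrv2 (-0.32) lower. Among 8 neuron markers 2 rose, brp (1.0) and nSyb (0.23), and 4 fell (median -0.18). The transmitter genes Gad1 (-0.92), ChAT (-0.49) and VAChT (-0.40) were among those that fell. Cuticle proteins had 15 of 36 lower and 4 higher, with the highest value for Cpr49Ac (2.01), whose inputs of 184, 56.0 and 336 CPM and IPs of 674, 221 and 1519 CPM overlapped although each IP was above its input.

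The lists of proteins that act on RNA and chromatin described next had more members higher than lower. The list of cytosolic aminoacyl-tRNA synthetases went the other way, with 3 of 18 higher and 9 lower (median -0.17). Of 28 tested genes for splice site recognition and SR proteins, 19 rose and 3 fell, with a median of 0.40. tra, the sex determination splicing regulator, rose from 30.9, 23.3 and 29.1 to 74.9, 68.1 and 74.2 CPM (1.39, SE 0.08, edgeR adjusted p = 7.23e-09), and snRNP-U1-70K, a protein of the U1 particle, from 48.2, 50.9 and 52.3 to 108, 144 and 137 CPM (1.35). Neither overlapped. The U1 protein snRNP-U1-C (-1.10) and the SR repressor Rsf1 (-0.51) fell.

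Of 9 genes of the exon junction and ASAP complexes 5 rose and 3 fell (median 0.27), and the 33.3% lower was near the 29.5% of all genes. Acn rose by 1.65, btz, the Barentsz subunit, by 0.96 and Srrm1, a splicing coactivator, by 0.44. The core subunits mago (-0.85), tsu, the fly Y14 (-0.64), and CG7483, eIF4AIII (-0.44), fell. mago went from 12.7, 10.6 and 11.8 to 6.59, 6.59 and 6.25 CPM and tsu from 14.7, 12.9 and 14.2 to 10.3, 8.27 and 8.24 CPM, with no overlap in either. CG7483 was not called without pair 4 (-0.33, edgeR adjusted p = 0.0752), and tsu was not called with the exon length correction (-0.19, edgeR adjusted p = 0.155). In nonsense-mediated decay, which destroys mRNAs with early stop codons and uses the exon junction complex, 4 of 6 genes rose: Upf1 (0.95), Upf3 (0.86), Smg5 (0.79) and Smg6 (0.57). nonC, which encodes the kinase Smg1, fell (-0.30).

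Among hnRNPs and neuronal RNA-binding proteins 12 of 29 rose and 5 fell (median 0.16). qkr58E-1, a KH domain protein, rose by 1.49 and Atx2, fly ataxin-2, from 526, 592 and 510 to 1092, 1178 and 1051 CPM (1.03, SE 0.08, edgeR adjusted p = 5.74e-08). The poly(A)-binding protein pAbp (-0.48) and the translational regulators pum (-0.37) and orb2 (-0.35) fell. Translation initiation factors had 15 of 35 higher and 6 lower (median 0.14), from eIF6 (1.26) to eIF1 (-1.45). Ribosome biogenesis had 13 of 21 higher and 3 lower (median 0.42). Sas10, of the small subunit processome, rose from 18.5, 20.7 and 17.4 to 56.4, 100 and 62.1 CPM (1.92, SE 0.11, edgeR adjusted p = 5.23e-09), RIOK1, a kinase of the pre-40S particle, rose by 1.85, and the snoRNP protein Nop56 fell (-0.59).

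Chromatin regulators had 32 of 46 members higher and 5 lower, with a median of 0.38. msl-1, a scaffold of the dosage compensation complex, rose from 71.4, 112 and 72.0 to 160, 440 and 197 CPM (1.54, SE 0.12, edgeR adjusted p = 6.46e-08), brm, the SWI/SNF ATPase, from 162, 180 and 176 to 329, 473 and 453 CPM (1.26), and mof, the H4K16 acetyltransferase, from 19.7, 18.9 and 18.6 to 43.7, 47.3 and 42.6 CPM (1.23). In each the lowest IP exceeded the highest input. The RNA roX2 of the complex that msl-1 and mof belong to was the one that fell above. Nipped-A (-0.73) and the cohesin loader Nipped-B (-0.60) were among the 5 that fell. Of 22 nucleoporins 11 rose and 1, Nup107 (-0.55), fell, with Nup214 at 1.40 and Nup153 at 1.31.

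Transcription factors tended the same way. Of 28 factors of stress, growth and hormone response 19 rose and 3 fell (median 0.35), with Xrp1 and the ecdysone-induced factor br (1.23) higher and Atf6 (-0.49), Stat92E (-0.45) and Eip78C (-0.30) lower. Of 26 factors of neural development 13 rose and 3 fell (median 0.24). ct, a homeodomain factor of sensory organs and dendrites, rose from 338, 448 and 323 to 698, 1110 and 854 CPM (1.25, SE 0.09, edgeR adjusted p = 2.48e-08) and acj6, a POU factor of olfactory neurons, rose by 1.11. Both stood clear of the inputs, and exd fell (-0.48). Dif, the NF-κB factor of the Toll pathway and a member of the stress list, rose by 0.92.

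Of 28 ion channels and transmitter receptors 16 rose and 3 fell (median 0.23), although only 9 were higher and 5 lower with the exon length correction. The receptor subunit nAChRalpha5 rose from 152, 133 and 141 to 283, 270 and 303 CPM (1.01, SE 0.07, edgeR adjusted p = 4.46e-08) and the potassium channel Shab from 257, 281 and 262 to 446, 513 and 508 CPM (0.87, SE 0.07, edgeR adjusted p = 1.88e-07). nAChRalpha4 fell (-0.72). Of 26 genes of synaptic release 8 rose (30.8%) and 11 fell (42.3%), with a median of -0.07, beside 29.6% and 29.5% of all genes. The active zone scaffolds Rim and brp rose, Rim from 382, 460 and 378 to 693, 867 and 808 CPM (0.96) and brp from 897, 1059 and 897 to 1734, 2070 and 1902 CPM (1.0). Genes of vesicle fusion went both ways. The SNARE gene Snap25 fell from 216, 231 and 225 to 103, 92.5 and 113 CPM (-1.13) and comt, which encodes NSF, from 226, 256 and 228 to 97.2, 100 and 89.5 CPM (-1.31). The SNARE gene Syx1A rose from 341, 369 and 343 to 490, 565 and 509 CPM (0.57, SE 0.07, edgeR adjusted p = 1.11e-05), and nSyb was called higher by 0.23, but not without pair 4 or pair 6 (0.22 and 0.19, edgeR adjusted p = 0.0556 and 0.25).

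Heat shock proteins had 7 of 21 higher (33.3%) and 8 lower (38.1%), with a median of 0.09. These shares were near the 29.6% and 29.5% of all genes. Hsp70Bb, from the gene family whose promoter drives the Gal4, rose from 127, 73.9 and 65.8 to 285, 192 and 144 CPM (1.22, SE 0.08, edgeR adjusted p = 1.04e-08), and its copies share reads. The co-chaperone stv rose by 0.92, while the small heat shock proteins Hsp67Bc (-1.60) and Hsp23 (-1.42) fell. Hsp23 was at 95.1 CPM in input 4 and 21.6 and 18.3 CPM in inputs 5 and 6, against 35.7, 8.70 and 6.12 CPM in the IPs, so its groups overlapped. Among the genes with the most counts, Lk6, a kinase of eIF4E, rose from 3897, 3633 and 4294 to 7760, 7538 and 8792 CPM (1.03) and Arc1, a capsid-forming synaptic gene, fell from 19050, 9540 and 13499 to 7508, 6968 and 4714 CPM (-1.11, SE 0.17, edgeR adjusted p = 5.45e-05). Arc1 was not called by DESeq2 with the block (adjusted p = 0.0889).

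**Figure D3:**
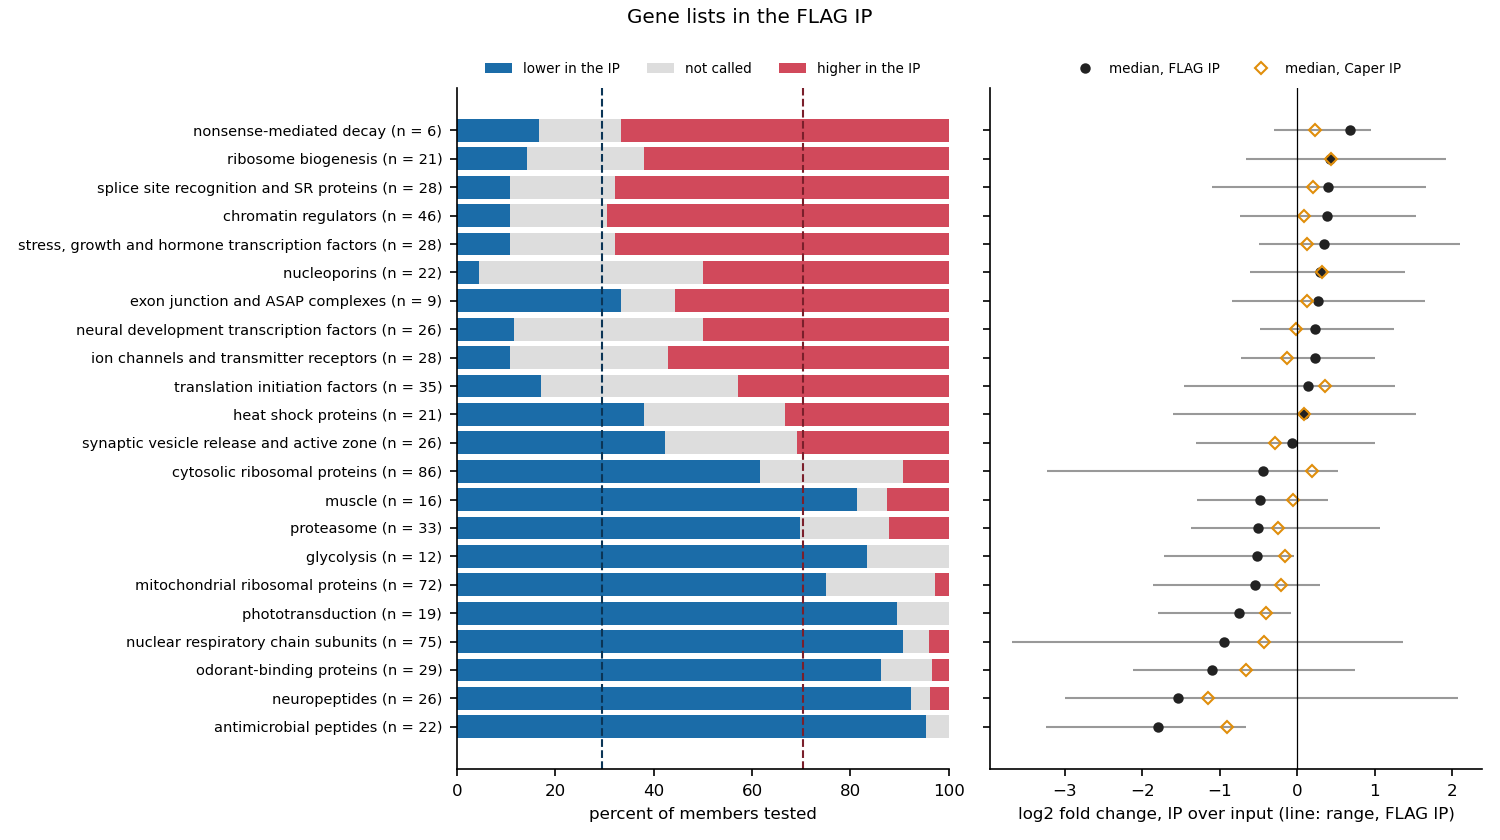
Left, the percent of tested members of 22 gene lists called lower, not called and called higher in the FLAG IP, with dashed lines at the 29.5% lower and 29.6% higher of all genes. Right, the median log2 fold change in the FLAG IP (black points, lines from the lowest to the highest member) and in the Caper IP (orange diamonds), with neuropeptides (-1.54) and antimicrobial peptides (-1.80) far left and chromatin regulators (0.38) and splicing factors (0.40) on the right.

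Enrichment varied with the size of the mRNA. Of 190 nuclear mRNAs with up to 500 exon bases 129 fell and 15 rose (median -1.08), of 3088 with 1000 to 2000 bases 933 fell and 764 rose (-0.05), and of 1618 with 4000 to 8000 bases 361 fell and 717 rose (0.15). The genes at least 2-fold higher had a median of 2372 exon bases and those at least 2-fold lower 841.5. Over 9668 genes tested with both antibodies, the Spearman correlation of log2 fold change with exon length was 0.263 with the FLAG antibody and 0.0311 with the Caper antibody, a description across genes that share libraries and depth. With the exon length correction, 26 chromatin regulators and 78 antisense RNAs were higher, 8 hnRNPs and other RNA-binding proteins, 6 neural and 5 stress factors and 3 nucleoporins were lower, and 18 odorant-binding and 10 cuticle proteins were lower, beside the counts given for each list above. Among 516 mRNAs at up to 1 CPM in the inputs, 27.9% were higher and 1.16% lower (median 0.65), beside 29.9% and 29.8% of all nuclear mRNAs. They held 133 of the 667 mRNAs at least 2-fold higher. Such genes passed the filter on low counts more easily where the IP was high, so these values carry that selection. Of 319 mRNAs above 500 CPM 165 fell and 69 rose. By chromosome, mRNAs from chromosome 4 stood out, with 46 of 79 lower and 5 higher (median -0.28), against 412 lower and 552 higher of 1615 on X.

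**Figure D4:**
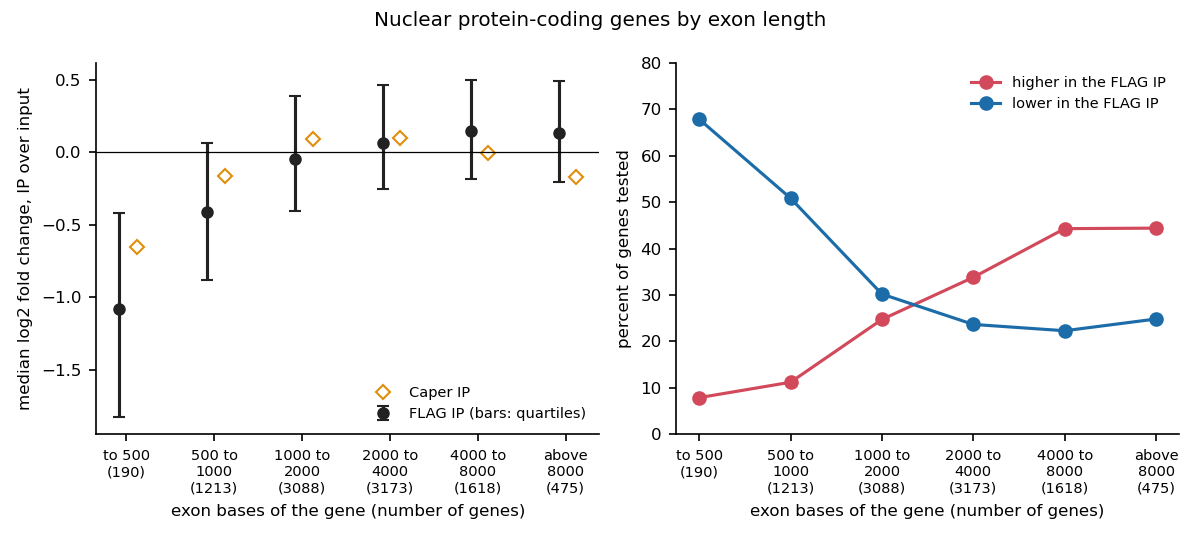
Left, median log2 fold change of nuclear mRNAs by number of exon bases in the FLAG IP, with bars for the quartiles, and in the Caper IP. Right, the percent of mRNAs called higher and lower in the FLAG IP in each bin. The FLAG median runs from -1.08 in the shortest bin to 0.15 at 4000 to 8000 bases.

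The IP with the Caper antibody, fitted in the same way on its own 3 pairs, gave 1708 genes higher (15.8% of 10778) and 1599 lower (14.8%). Caper RNA rose there by 0.92 on the log2 scale, which differed from the FLAG IP by 0.03 (SE 0.14, edgeR adjusted p = 0.932). The difference between the antibodies was tested as an interaction over 12 libraries. It was called for 729 genes higher in FLAG (6.62% of 11012) and 599 lower (5.44%). These counts changed much when 1 pair was left out. Without pair 6 they were 130 and 31, without pair 3 188 and 70, without pair 5 337 and 167, and without pair 1 1104 and 1164. A fit without a pair also has fewer samples, and the part of that in the change was not tested. Each antibody had IPs and inputs of its own, so antibody and sample cannot be told apart. Of the genes named here, 14 kept a called difference with any pair left out, and those are the single RNAs described here.

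The scaffold genes Rim and brp and the channel and receptor genes Shab and nAChRalpha5 were enriched by FLAG and not called with the Caper antibody. They do not stand for their lists. In the Caper IP 1 of 28 ion channel and receptor genes rose and 11 fell. Of 26 synaptic genes 3 rose and 15 fell there, and 8 rose and 11 fell in the FLAG IP. Rim rose by 0.96 in the FLAG IP and was at -0.03 in the Caper IP (difference 0.99, SE 0.11, edgeR adjusted p = 0.00159), brp was at 1.0 and 0.14 (difference 0.86), Shab at 0.87 and -0.03 (0.91) and nAChRalpha5 at 1.01 and -0.10 (1.11, SE 0.13, edgeR adjusted p = 0.00161). The regulators br (1.23 and 0.19, difference 1.05) and ct (1.25 and 0.17, difference 1.09) showed the same order, as did lncRNA:CR42862 (2.05 and 0.52, difference 1.52). Nup153 (1.31 and 0.37) and CG2964 (2.14 and 1.19) rose with both antibodies and more with FLAG. Of the lists, 14 of 28 ion channel and receptor genes were higher in FLAG by this test, with 8 to 16 when a pair was left out (8 without pair 6). Of 46 chromatin regulators 18 were higher in FLAG, but 1 without pair 6, 5 without pair 3 and 7 without pair 5. Of 26 synaptic genes 8 were higher, but 2 without pair 3 or pair 6 and 5 without pair 2, 4 or 5. With no replicate block the counts were 7, 0 and 2.

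On the depleted side, mitochondrial RNAs did not move alike. ND1 was lower in FLAG (-4.32) than in the Caper IP (-3.03), a difference of -1.28 (SE 0.18, edgeR adjusted p = 0.00284), whereas lrRNA was less depleted in FLAG (-2.01) than in the Caper IP (-4.76), a difference of 2.75 (SE 0.27, edgeR adjusted p = 0.00122). snoRNA:SC35-a was likewise less depleted in FLAG (-1.94 and -4.05, difference 2.11). RpL38 was lower in FLAG (-3.24 and -2.10, difference -1.13), and lncRNA:roX2 fell only in FLAG by call (-1.38 and -0.26, difference -1.12). Cytosolic ribosomal proteins were lower in FLAG for 66 of 87 members and higher for none, but for 10 without pair 6, 18 without pair 3, 26 without pair 5 and 38 without pair 2, and for 0 with no replicate block. Their medians were -0.43 with FLAG and 0.19 with the Caper antibody, in whose IP 31 rose and 13 fell.

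**Figure D5:**
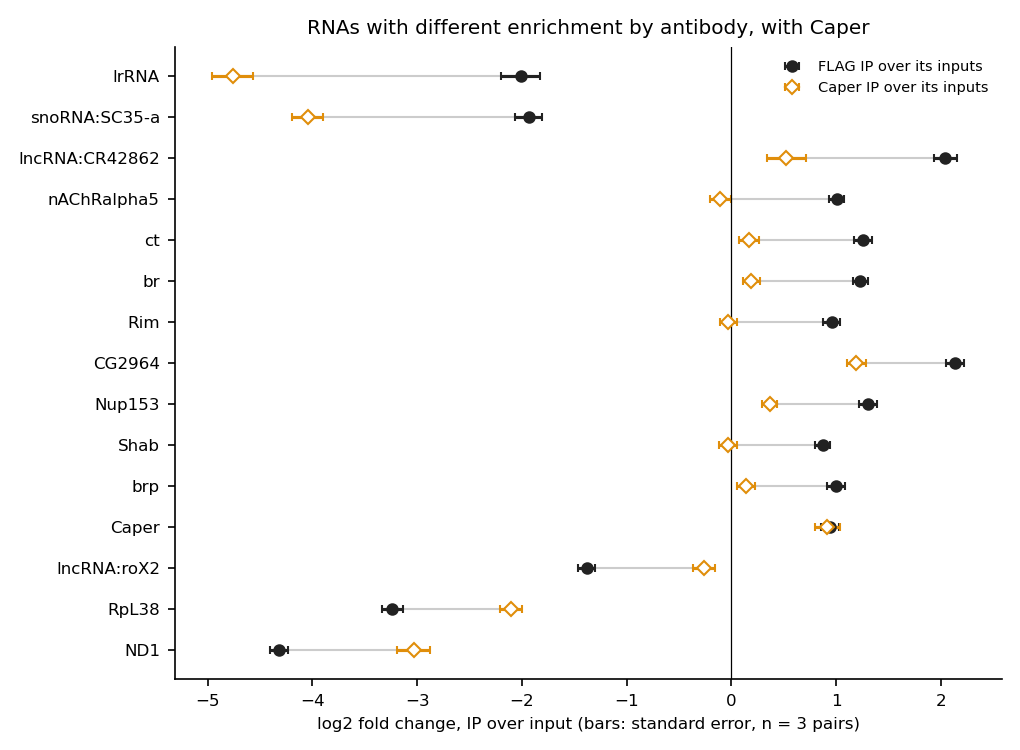
Log2 fold change over input, with SE bars, in both IPs for Caper and 14 RNAs whose difference between the antibodies was called with any pair left out. Caper is level in both, at 0.94 and 0.92, while lrRNA lies at -2.01 in FLAG and -4.76 in the Caper IP and Rim at 0.96 and -0.03.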

How the data were processed

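The deposited table holds the raw read-pair count per gene that the authors obtained by trimming reads with fastp (0.20.1), checking them with FastQC (0.11.8), mapping them with STAR (2.7.6a) to FlyBase dmel_r6.36 and counting pairs on exons, strand-specifically, with featureCounts of Subread (2.0.1). The libraries were total RNA with rRNA removed by Drosophila probes, and pairs that map to several places were not counted. Exon lengths and positions come from the same table, and symbols from the supplementary tables of the study or from RefSeq by position (17176 of 17612 genes, of which 17159 matched exactly and 6 nearly; 2615 of 2681 genes with both had the same symbol).

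The FLAG IPs were compared with their inputs in edgeR (4.0.16, R 4.3.3) with TMM scaling, its default filter (minimum count 10, minimum total count 15), a prior count of 2 for values on the log scale, the quasi-likelihood F test and Benjamini-Hochberg adjustment at 0.05 over 10476 genes. A level in CPM is scaled by TMM, and a share of counts is not. The standard error is the log2 fold change divided by the square root of F. The replicate number was a block, since each input's title names the IP it belongs to. The counts of an IP and its own input deviated together from their group means (Pearson r 0.521, 0.670 and 0.541 across 10476 genes, against -0.432 to -0.0352 for other pairings), and the biological coefficient of variation was 0.0731 with the block and 0.176 without it. The 2 antibodies were compared by the interaction of IP and antibody over 12 libraries. An exact permutation test of 3 against 3 samples cannot give a p below 0.1, so none was used.

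Named genes were Caper, the 10 highest and 10 lowest mRNAs and the 5 highest and 5 lowest other RNAs among called genes with the same sign in 3 pairs and a mean of at least 100 counts, the 3 highest and 3 lowest called members of each list, the genes with the most counts, and the largest differences between antibodies. The mean covers inputs and IPs, so a gene can meet the rule only through the group where it is high. Not every gene that meets the rule is reported here. Other genes in the text were chosen after their values were seen. The gene lists, and all choices of what to describe, were made with earlier results of these data known, and lists are described by counts and medians with no test. The fits were also run on simulated data in which far fewer genes changed than were called here, so that run does not measure error rates in these data. Alternatives were no block, DESeq2 (1.42.0), RLE normalization, library size only, other filters, nuclear mRNAs only, a correction for exon length, all 12 libraries in 1 fit, and each pair left out. Intronic reads and replication-dependent histones (0 of 111 tested) were not analysed here.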

Additional observations from a re-analysis of the deposited data

Results flagged for a closer look

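The RNAs that differed between the FLAG IP and the Caper IP by the interaction test, among those named in the report, were 47, and each value here is the FLAG log2 fold change minus that of the Caper IP. Among regulators of RNA and chromatin the differences were Acn 1.13, qkr58E-1 0.96, Nup153 0.94, Nup214 0.86, RIOK1 0.84, brm 0.75, mof 0.47, pAbp -0.49, tsu -0.57 and eIF1 -0.75. Among transcription factors they were ct 1.09, br 1.05, Xrp1 0.92, Dif 0.62, acj6 0.60 and zfh1 0.40, and among neuronal membrane and active zone genes nAChRalpha5 1.11, Rim 0.99, Shab 0.91 and brp 0.86. Noncoding RNAs differed by 2.75 for lrRNA, 2.11 for snoRNA:SC35-a, 1.52 for lncRNA:CR42862, 1.49 for the pseudogene CR17438, 1.38 for snoRNA:Psi28S-2442b, 1.33 for asRNA:CR46089, 1.11 for lncRNA:CR45380 and -1.12 for lncRNA:roX2.

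Enriched genes without a role given here differed by 1.12 (CG17440), 0.97 (CG14961) and 0.95 (CG2964), and the co-chaperone stv by 0.36. RNAs more depleted with FLAG were ND1 (-1.28), RpL38 (-1.13), COX7AL2 (-1.12), CG12158 (-1.01), Obp99b (-0.97), BomS5 (-0.96), COX8 (-0.86), Rh5 (-0.79), RpL41 (-0.71), Prosbeta5 (-0.71), ninaE (-0.68), alrm (-0.61), Gapdh2 (-0.49), Ald1 (-0.43) and Eaat1 (-0.32).

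Of the 47, 45 were still called without pair 1, 33 without pair 2, 16 without pair 3, 35 without pair 4, 22 without pair 5 and 15 without pair 6, and 14 in each of these fits. Without the replicate block 9 were called, and 43 with scaling by library size alone. Each antibody had IPs and inputs of its own, so the part of the sample in these differences cannot be told apart from that of the antibody.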

How the results depend on the processing

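With no replicate block 2045 genes were higher and 2184 lower in the FLAG IP, and the difference between antibodies was called for 90 genes higher and 16 lower in FLAG. With the replicate block and a correction for exon length, 450 genes were at least 2-fold lower. Leaving out each pair gave 2588 to 2766 genes higher, 2637 to 2948 lower, 690 to 836 at least 2-fold higher and 666 to 761 at least 2-fold lower. The difference between antibodies ranged from 130 to 1104 genes higher and 31 to 1164 lower in FLAG, with 349 lower without pair 2 and 310 without pair 4 beside the values given in the report. DESeq2 with the block called 2604 higher and 2493 lower. Scaling by library size alone moved the median of all genes to 0.09 and called 3711 higher and 2551 lower. Of 126 genes named, the call of 11 was lost with no block (CG7483, Cpr49Ac, Hsp23, Smg5, Yp3, lncRNA:CR44842, moody, nSyb, ninaE, nonC and snoRNA:Me28S-A1322), of 1 with DESeq2 (Arc1), of 2 with the length correction (tsu and nSyb), of 2 without pair 4 (CG7483 and nSyb) and of 2 without pair 6 (ninaE and nSyb), and no direction turned. The causes were not tested. Most input alignments were multimapping and not counted, which limits genes with repeated copies.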
